A study of Homo sapiens with 16 samples.

Results

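The genes described here are 39 genes of DNA replication, DNA repair and mitosis, taken by name from the gene symbols in the part of the study's source table used here, which covers a few chromosomes (25 members lie on chromosome 1, 12 on chromosome 2 and 2 on chromosome 3). The genes were chosen with earlier results of these data known. Their contrast with all tested transcripts is therefore a description and no independent test. Each gene is represented by the listed transcript with the most mRNA-Seq counts, all 39 were joined between the assays, and all 39 passed the filter on low counts among 10970 tested transcripts. They were measured in HEK293T cells, a human embryonic kidney line that expresses the SV40 large T antigen, by Ribo-Seq, which counts ribosome-protected fragments (RPFs), and by mRNA-Seq. Cells were untreated, or received for 1 hr 1 µg/ml tunicamycin (Tm), Tm with 200 nM ISRIB, or 200 nM ISRIB, with 2 biological replicates (a and b) of each treatment and 16 libraries in all. No gene was edited for the experiment, and cycloheximide was added to the cells of all treatments before lysis. The study divided each lysate between RNA extraction and nuclease digestion, so both assays were made from cells given cycloheximide.

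Tm blocks N-linked glycosylation in the endoplasmic reticulum, and the unfolded proteins that result activate the kinase PERK, which phosphorylates the initiation factor eIF2 and lowers translation initiation. ISRIB makes cells insensitive to that phosphorylation. The 39 genes encode the machinery that copies, checks and divides chromosomes: origin recognition and helicase subunits, mismatch, recombination and crosslink repair enzymes, kinetochore subunits, spindle motors and checkpoint regulators. Many of their mRNAs and proteins rise and fall with the cell cycle, and the labels name no synchronization. In bulk samples such as these, a smaller number of cells in a stage and less RNA or translation per cell cannot be told apart.

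Depth on the joined transcripts was 3001612 to 11469150 RPFs per Ribo-Seq library and 8466193 to 24499266 reads per mRNA-Seq library, and the 2 Tm libraries were the shallowest of Ribo-Seq. The smallest count of any member in any library was 27 RPFs (CENPL) and 73 mRNA reads (CENPA), and the largest were 13298 and 46081 (PARP1 in both assays). Levels are given as CPM, reads of a transcript per library of standard size after scaling by edgeR's TMM method. Every change is thus set against the bulk of transcripts in the same assay, and the fall in total translation that eIF2 phosphorylation causes was not measured. Changes are log2 fold changes from edgeR's quasi-likelihood test over all 4 treatments, with their standard errors (SE), and a gene is said to have risen or fallen when its Benjamini-Hochberg adjusted p over all 10970 transcripts was under 0.1. With 2 libraries against 2 no exact permutation test of a single gene can give a p below 0.333. As a reference for size, RPFs on ATF4, the known target of eIF2 phosphorylation, rose by 2.69 (SE 0.10) in Tm.

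The start codons and upstream AUGs of the members on which the results turn are shown first, since upstream reading frames are a known means by which some mRNAs keep being translated under eIF2 phosphorylation. They come from GENCODE v29 (GRCh38) transcripts of the same symbol whose coding sequence was 20 codons longer than the counted length, a match found for all 39 members. Each start is given with 12 bases before and 9 after it, with the start codon in capitals.
ASPM start: ctcgaatctgccATGgcgaaccgg
KIF14 start: ctgtctgccaaaATGtcattacac
KIF2C start: ctgactctccgaATGgccatggac
CENPO start: ttgaagacgtggATGgcgggaatt
CDCA8 start: ccgccgagcgccATGgctcctagg
RCC2 start: ccagccgcgaccATGcccaggaag
USP1 start: ttgaagaaaaaaATGcctggtgtc
A purine at the position 3 bases before the start codon, the strongest feature of a good context, was present in 33 of the 39 members (84.6%) and in 86.2% of 1738 other named tested transcripts matched in the same way. CENPO and KIF2C lacked it among those printed. In GRCh38, the annotated genes (whole gene spans, not the matched transcripts) lie on chromosome 1 for ASPM (197084128 to 197146694, minus strand), KIF14 (200551497 to 200620734, minus), KIF2C (44739818 to 44767767, plus), CDCA8 (37692418 to 37709719, plus), RCC2 (17406760 to 17439724, minus) and USP1 (62436297 to 62451804, plus), and on chromosome 2 for CENPO (24793136 to 24822376, plus).

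At least 1 upstream AUG lay in the 5′ UTR of 20 of the 39 members (51.3%), against 50.1% of the other named transcripts. USP1 had 5, in a 5′ UTR of 815 nt, or of 328 nt in the shortest other transcript with the same coding sequence. KIF14 had 4 and CENPO 2, and in each of them the last frame ran into the coding sequence. The upstream AUGs of USP1 and the overlapping ones of CENPO and KIF14 are shown in capitals with up to 9 bases on either side.
USP1, 745 nt before the coding sequence, frame of 6 codons: cgcgcacgaATGgttaaaaaa
USP1, 307 nt before, frame of 7 codons: cgggcgcagATGggcgccgct
USP1, 289 nt before, frame of 1 codon: gctcccgggATGtagttggtg
USP1, 225 nt before, frame of 53 codons: tgggagcggATGgtcactccc
USP1, 77 nt before, frame of 6 codons: ctttgggccATGaccagatat
CENPO, 64 nt before, frame of 47 codons that enters the coding sequence: agcgccgccATGcttttgtac
KIF14, 61 nt before, frame of 27 codons that enters the coding sequence: atcaaatgaATGtccaaagaa
ASPM, KIF2C, CDCA8 and RCC2 had no upstream AUG in the 1 transcript searched for each gene. Other transcripts of the same coding length had 5′ UTRs of up to 273 nt for CDCA8 and 188 nt for RCC2, against 113 and 47 nt searched. For KIF14 the shortest was 0 nt, against 439 nt searched. Of the 20 members with an upstream AUG, 6 rose and 1 fell in RPFs in Tm, with a median change of 0.11, and of the 19 without, 7 rose and 0 fell, with a median of 0.14. The annotated start of translation was not measured in these cells.

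In Tm against untreated cells, RPFs rose on 13 of the 39 members and fell on 1, where 6.32% of all tested transcripts rose and 7.23% fell. The risers included spindle proteins (ASPM, KIF14, KIF2C), kinetochore and centromere proteins (CENPO, CENPF), mitotic regulators (BUB1, CDCA8, CKS1B), the cohesion protector SGOL2, origin recognition subunits (ORC1, ORC4) and repair proteins (MSH6, UBE2T). The changes were small, between 0.23 (MSH6) and 0.46 (ASPM) on the log2 scale. The member that fell was USP1, a deubiquitinase of the crosslink repair protein FANCD2 and of PCNA. Of the 39 changes, 30 were above 0, with a median of 0.13 against -0.01 over all tested transcripts. In 22 members both Tm libraries lay above both untreated libraries, and in 3 both lay below, where 24.3% and 27% of all tested transcripts did so.

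The members together took 0.683% and 0.657% of the RPFs in the untreated libraries a and b, 0.745% and 0.761% in Tm, 0.675% and 0.688% in Tm + ISRIB and 0.672% and 0.662% in ISRIB. The Tm libraries were thus above the other 6. In mRNA-Seq the share was 1.102% and 1.131% in untreated cells and 1.055% and 1.097% in Tm. It was 1.086% and 1.051% in Tm + ISRIB and 1.102% and 1.105% in ISRIB. Every mRNA-Seq library given Tm, with or without ISRIB, was thus below every library not given Tm, by a small margin.

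**Figure D1:**
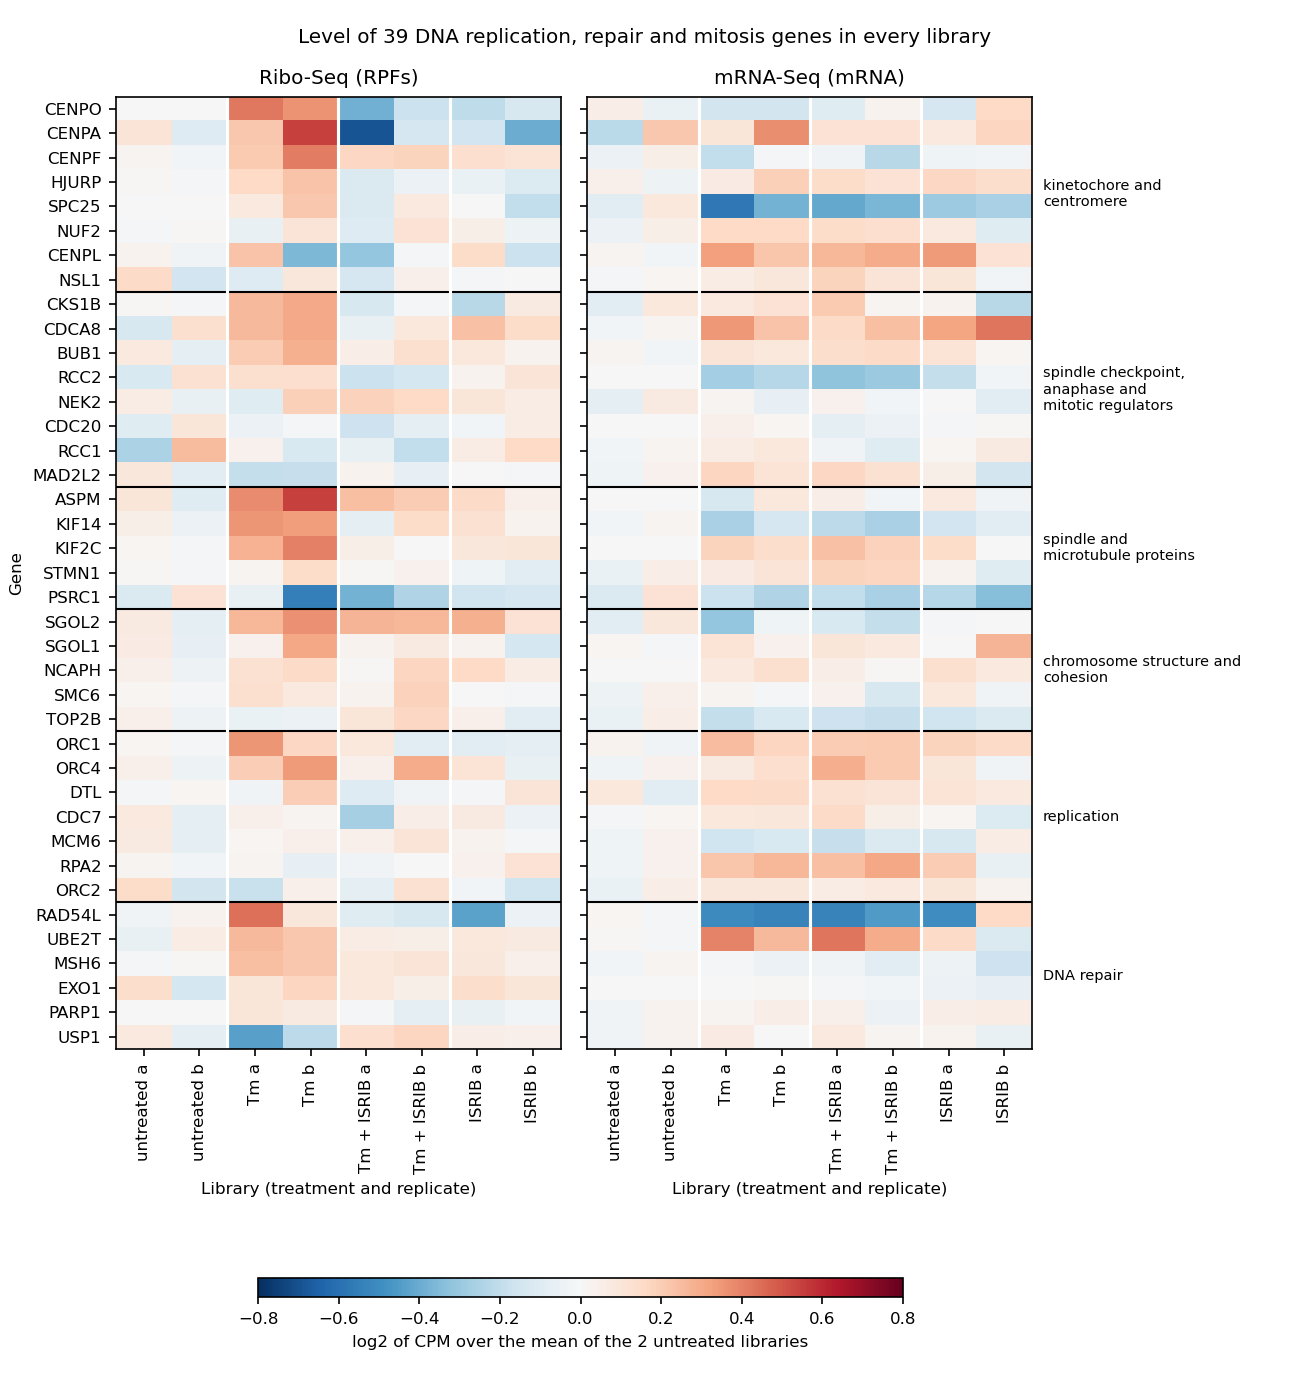
Level of the 39 genes in each of the 8 Ribo-Seq and 8 mRNA-Seq libraries, as log2 of the CPM over the mean of the 2 untreated libraries, with genes grouped by role and ordered within a role by the RPF change in Tm. The Tm columns of Ribo-Seq are mostly red, with USP1, PSRC1 and MAD2L2 blue, and the mRNA of RAD54L and SPC25 is low in Tm, in Tm + ISRIB and, for RAD54L, in ISRIB replicate a alone of the ISRIB libraries.

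Among the 5 spindle and microtubule proteins, 3 rose in RPFs, the role group with the highest median change (0.34). ASPM, a spindle-pole protein needed for the symmetric divisions of neural progenitors, had 202 and 176 CPM of RPFs in untreated replicates a and b, 245 and 275 in Tm, 223 and 217 in Tm + ISRIB and 209.7 and 194 in ISRIB. Both Tm libraries were above the other 6. The change in Tm was 0.46 (SE 0.08, adjusted p = 0.00035 in edgeR), and ASPM was the only member that stayed past the threshold in RPFs under all 11 alternatives run for this comparison.

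KIF14, a kinesin of the midbody that acts in cytokinesis, had 69.4 and 65 CPM of RPFs in untreated cells, 86.0 and 84.8 in Tm, 64.0 and 74.5 in Tm + ISRIB and 73.1 and 68.5 in ISRIB, a rise of 0.35 (SE 0.10, adjusted p = 0.025 in edgeR). KIF2C, a kinesin that takes microtubules apart at kinetochores, had 179 and 175 CPM in untreated cells, 215 and 235 in Tm, 183 and 178 in Tm + ISRIB and 189 in both ISRIB libraries, a rise of 0.34 (SE 0.08, adjusted p = 0.0045 in edgeR). In both genes the Tm libraries were the highest of the 8. STMN1, which sequesters tubulin dimers, had a change of 0.09 (SE 0.07) and PSRC1, a microtubule-binding protein of the spindle, one of -0.27 (SE 0.15), and neither passed.

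Of the 8 kinetochore and centromere genes, CENPO and CENPF rose. CENPO is a subunit of the inner kinetochore. Its counts were low, at 18.5 and 18.4 CPM in untreated cells, 24.7 and 23.7 in Tm, 14.2 and 16.4 in Tm + ISRIB and 16.1 and 16.9 in ISRIB, and the change in Tm of 0.40 (SE 0.15) was just inside the threshold (adjusted p = 0.099 in edgeR). CENPF, a large coiled-coil protein of the outer kinetochore, had 409 and 396 CPM in untreated cells, 466 and 535 in Tm, 452 and 455 in Tm + ISRIB and 441 and 434 in ISRIB, a rise of 0.31 (SE 0.07, adjusted p = 0.0049 in edgeR). The other 6 members of the group lay between -0.01 (NSL1, of the MIS12 complex) and 0.37 (CENPA, the histone H3 variant of centromeres, SE 0.20, adjusted p = 0.27 in edgeR). The large value of CENPA rests on 12.4 and 10.8 CPM in untreated cells against 13.4 and 16.9 in Tm.

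Of the 8 checkpoint, anaphase and mitotic regulators, 3 rose. BUB1, a checkpoint kinase, had 225 and 202 CPM of RPFs in untreated cells, 246 and 259.5 in Tm, 221 and 232 in Tm + ISRIB and 226 and 218 in ISRIB, a rise of 0.24 (SE 0.08, adjusted p = 0.046 in edgeR). CDCA8 (borealin), a subunit of the chromosomal passenger complex, had 70.3 and 83.8 CPM in untreated cells, 92.0 and 94.5 in Tm, 73.7 and 81.3 in Tm + ISRIB and 90.3 and 85.0 in ISRIB, a rise of 0.27 (SE 0.10, adjusted p = 0.093 in edgeR). Both ISRIB libraries were above both untreated ones, close below the Tm libraries. CKS1B, a small partner of cyclin-dependent kinases, had 69.9 and 69.0 CPM in untreated cells, 83.2 and 85.7 in Tm, 63.7 and 69.1 in Tm + ISRIB and 59.5 and 73.2 in ISRIB, a rise of 0.28 (SE 0.10, adjusted p = 0.083 in edgeR). The other 5, CDC20, MAD2L2, NEK2, RCC1 and RCC2, had changes from -0.18 (MAD2L2) to 0.12 (RCC2) that did not pass.

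Of the 5 genes of chromosome structure and cohesion, SGOL2, a shugoshin that protects cohesin at centromeres, rose from 71.7 and 64.8 CPM of RPFs in untreated cells to 81.8 and 87.7 in Tm, by 0.31 (SE 0.10, adjusted p = 0.044 in edgeR). It had 82.3 and 82.0 CPM in Tm + ISRIB and 82.9 and 73.7 in ISRIB, so that its Tm level overlapped that of cells given ISRIB. SGOL1, NCAPH of condensin, SMC6 and TOP2B had changes between -0.05 and 0.17 that did not pass.

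Of the 7 replication genes, the origin recognition subunits ORC1 and ORC4 rose. ORC1 had 70.2 and 68.5 CPM of RPFs in untreated cells, 88.5 and 77.6 in Tm, 73.6 and 65.3 in Tm + ISRIB and 65 and 65.9 in ISRIB, a rise of 0.27 (SE 0.10, adjusted p = 0.086 in edgeR). ORC4 had 83.0 and 78.5 CPM in untreated cells, 92.5 and 102 in Tm, 83.0 and 99.1 in Tm + ISRIB and 86.9 and 77.3 in ISRIB, a rise of 0.26 (SE 0.10, adjusted p = 0.0997 in edgeR). The Tm libraries were the highest of the 8 for ORC1, and for ORC4 Tm + ISRIB replicate b lay between them. ORC2, the helicase subunit MCM6, the origin-firing kinase CDC7, DTL, which directs the licensing factor CDT1 to degradation, and RPA2, of the single-strand binding complex, had changes from -0.08 to 0.08 that did not pass.

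Of the 6 DNA repair genes, MSH6 and UBE2T rose and USP1 fell. MSH6, of the mismatch recognition dimer, had 403 and 407 CPM of RPFs in untreated cells, 478 and 470.3 in Tm, 430.1 and 435 in Tm + ISRIB and 431 and 417 in ISRIB, a rise of 0.23 (SE 0.07, adjusted p = 0.03 in edgeR). UBE2T, the ubiquitin-conjugating enzyme that modifies FANCD2, had 106 and 115 CPM in untreated cells, 133 and 129 in Tm, 116 and 114 in Tm + ISRIB and 117.7 and 116.5 in ISRIB, a rise of 0.24 (SE 0.08, adjusted p = 0.079 in edgeR). USP1, which removes that ubiquitin, had 193 and 173 CPM in untreated cells, 135 and 158 in Tm, 201 and 207 in Tm + ISRIB and 189.7 and 188 in ISRIB. Its Tm libraries were the lowest of the 8, and the change in Tm was -0.33 (SE 0.09, adjusted p = 0.015 in edgeR). RAD54L, a translocase of homologous recombination, had a change of 0.29 (SE 0.13), and those of PARP1 and EXO1 were 0.08 and 0.13, none of which passed.

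Leaving out a library leaves 1 library in a group, so only the size of the change is given here. With each library of the comparison left out in turn, the median RPF change of the members was 0.10 to 0.16, against 0.13 with all. DESeq2's Wald test called 7 rises and 1 fall among the members. It called 753 of all tested transcripts, where edgeR's test called 1486.

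The length of the coding sequence moved with the result. Over all tested transcripts, the share that rose in RPFs in Tm went from 4.55% of those with up to 200 counted codons to 14.6% of those with more than 1200, and the median mRNA change went from 0.06 to -0.15. The members had a median of 555 counted codons against 461 for all tested transcripts, and 5 of the 6 members above 1200 codons (ASPM, CENPF, KIF14, MSH6 and SGOL2, but not TOP2B) rose in RPFs. With the trend over coding length removed, an alternative chosen after seeing the data, 11 members rose and 1 fell. Of all tested transcripts 1380 were then called, against 1486 without the correction. CENPF no longer passed, with a change of 0.17 in place of 0.31. CKS1B, with 60 counted codons, no longer passed either, but its change of 0.23 was close to the 0.28 without the correction. The same correction was fitted in the other comparisons. In RPFs in Tm + ISRIB against Tm it called 13 members and 1952 of all tested transcripts, against 12 and 1945 without it. In mRNA in Tm it called 5 and 1537, against 6 and 1212. Whether length was a cause of these changes was not tested.

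**Figure D2:**
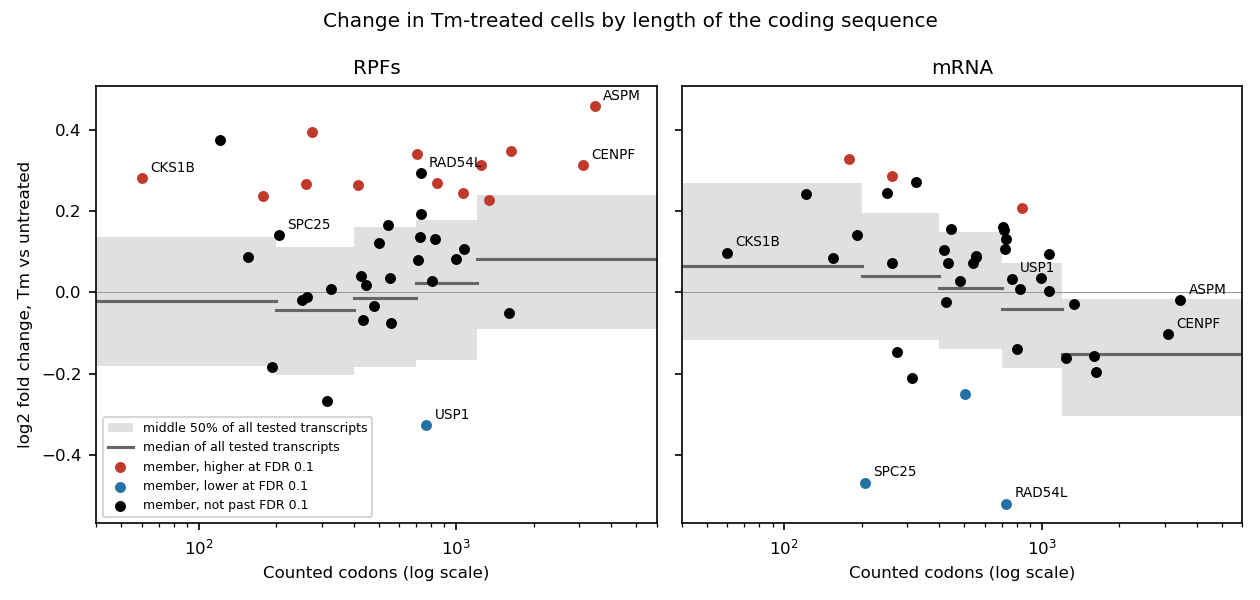
Change of each member in Tm-treated against untreated cells by counted codons (log scale), for RPFs and for mRNA, over the median and middle 50% of all tested transcripts in 5 length classes. The members rise above the grey median in RPFs at most lengths, ASPM (0.46) and CENPF (0.31) lie at the long end, and in mRNA SPC25 and RAD54L lie well below the grey range.

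In mRNA-Seq, 3 members rose and 3 fell in Tm against untreated cells, where 6.6% of all tested transcripts rose and 4.45% fell. The risers CDCA8, ORC1 and UBE2T were also among those that rose in RPFs. The mRNAs that fell were those of RAD54L, of SPC25, a subunit of the NDC80 complex that binds microtubules, and of RCC2, a mitotic regulator that associates with centromeres. The median mRNA change of the 39 was 0.07 against 0.00 over all tested transcripts.

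UBE2T mRNA was 77.2 and 76.4 CPM in untreated cells, 101 and 91.8 in Tm, 104 and 94.5 in Tm + ISRIB and 85.5 and 71.0 in ISRIB, a rise of 0.33 in Tm (SE 0.09, adjusted p = 0.079 in edgeR). CDCA8 mRNA was 40.2 and 41.4 CPM in untreated cells, 51.8 and 47.8 in Tm, 45.4 and 48.3 in Tm + ISRIB and 50.7 and 55.0 in ISRIB, a rise of 0.29 (SE 0.08, adjusted p = 0.082 in edgeR). The ISRIB level of CDCA8 mRNA was thus at least that of Tm replicate b, and CDCA8 was the only member whose mRNA rose in ISRIB alone, by 0.37 (SE 0.08, adjusted p = 0.098 in edgeR), where 0.884% of all tested transcripts rose and 0.31% fell. That call was lost with scaling by total counts and in DESeq2, which called 0 members and 116 and 145 of all tested transcripts. With each library of the comparison left out in turn, the change was 0.31 to 0.42. As 1 library then remains in a group, these omissions cannot decide whether the call holds. ORC1 mRNA was 113 and 109 CPM in untreated cells, 131 and 124 in Tm, 127 and 128 in Tm + ISRIB and 125 and 123 in ISRIB, a rise of 0.21 in Tm (SE 0.06, adjusted p = 0.086 in edgeR).

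SPC25 mRNA was 45.1 and 50.5 CPM in untreated cells, 32.0 and 36.7 in Tm, 35.9 and 37.0 in Tm + ISRIB and 38.9 and 39.9 in ISRIB, and fell by 0.47 in Tm (SE 0.09, adjusted p = 0.033 in edgeR). RAD54L mRNA was 66.9 and 65.5 CPM in untreated cells, 46.6 and 45.8 in Tm, 45.7 and 48.3 in Tm + ISRIB and 46.8 and 74.0 in ISRIB, and fell by 0.52 in Tm (SE 0.16, adjusted p = 0.09 in edgeR). RCC2 mRNA was 232 and 233 CPM in untreated cells, 193 and 199 in Tm, 186 and 189 in Tm + ISRIB and 204 and 229 in ISRIB, and fell by 0.25 in Tm (SE 0.07, adjusted p = 0.069 in edgeR). For RAD54L the ISRIB libraries lay on either side, with replicate a at the level of the 4 libraries given Tm and replicate b above the untreated ones, and for SPC25 both ISRIB libraries were below the untreated ones without Tm. The part of differences between mRNA-Seq libraries in these changes was not tested. With each library of the comparison left out in turn, the changes were -0.58 to -0.38 for SPC25, -0.54 to -0.50 for RAD54L and -0.27 to -0.23 for RCC2. They were 0.26 to 0.40 for UBE2T, 0.23 to 0.34 for CDCA8 and 0.17 to 0.25 for ORC1. Such omissions leave 1 library in a group and cannot decide whether the 6 calls hold. With scaling by total counts in place of TMM, 1 member rose and 4 fell. Of all tested transcripts 1129 were then called, against 1212 with TMM.

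In Tm + ISRIB against untreated cells, the mRNA of 5 members rose (RPA2, KIF2C, ORC1, UBE2T and ORC4) and that of 4 fell (RCC2, SPC25, RAD54L and KIF14), where 8.3% of all tested transcripts rose and 5.93% fell. The largest were UBE2T at 0.37 (SE 0.09, adjusted p = 0.047 in edgeR) and RAD54L at -0.49 (SE 0.15, adjusted p = 0.08 in edgeR). This comparison shares its untreated libraries with the preceding comparison. Scaling by total counts gave 3 rises and 5 falls, with 1606 of all tested transcripts called, against 1562 with TMM. Leaving out each library in turn gave changes of 0.30 to 0.43 for UBE2T and -0.53 to -0.45 for RAD54L. Here too the omissions leave 1 library in a group and cannot decide whether the members' calls hold. No member's mRNA passed in Tm + ISRIB against Tm, in Tm + ISRIB against ISRIB or in the difference of the Tm effect with and without ISRIB, and 0% of all tested transcripts did in any of the 3 (edgeR). At an unadjusted p under 0.05 the members counted 0, 7 and 2 in that order, where 1.8%, 15.5% and 8.71% of all tested transcripts passed. DESeq2 called 0 members in each, and 0, 88 and 16 of all tested transcripts. Without ISRIB replicate a, however, 12 members passed in Tm + ISRIB against ISRIB, 9 higher (among them UBE2T, RPA2 and ORC4) and 3 lower (RAD54L, RCC2 and MCM6), with 1480 of all tested transcripts higher and 1607 lower. Without ISRIB replicate b, RAD54L passed in the difference of the Tm effect.

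**Figure D3:**
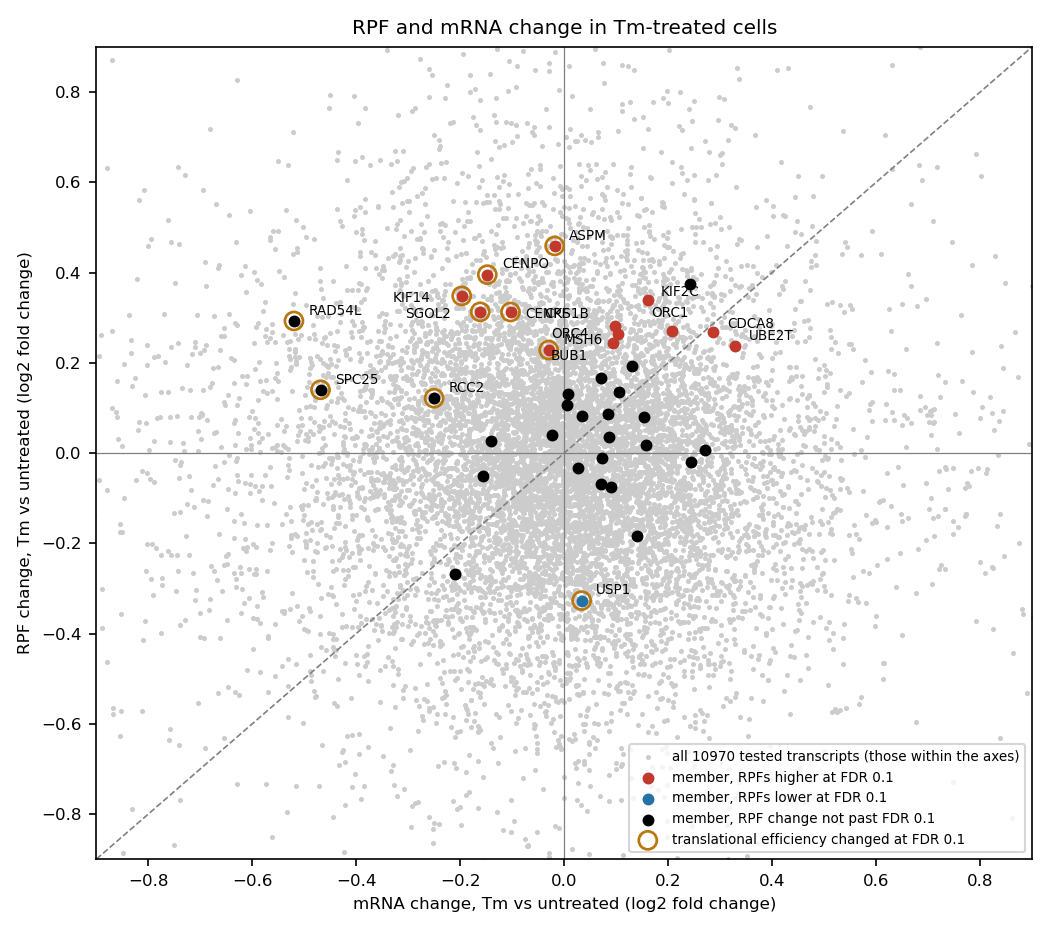
RPF change against mRNA change in Tm-treated over untreated cells (log2 fold changes) for the 39 members over all tested transcripts, with the dashed line where both are equal and rings round members whose translational efficiency changed. Members ringed above the line include RAD54L, SPC25 and RCC2, which lie to the left with lower mRNA, and ASPM, CENPO, KIF14, SGOL2, CENPF and MSH6, while USP1 is the ringed member below it.

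Translational efficiency is the change in RPFs less the change in mRNA, fitted over all 16 libraries without pairing by lysate. It rose in Tm for 9 members and fell for 1, where 7.19% of all tested transcripts rose and 8.78% fell. In 6 of the 9 (ASPM, CENPF, CENPO, KIF14, MSH6 and SGOL2) RPFs rose as well. In the other 3 (RAD54L, SPC25 and RCC2) the mRNA fell and the RPF change did not pass. The highest rises were RAD54L at 0.81 (SE 0.23, adjusted p = 0.027 in edgeR), SPC25 at 0.61 (SE 0.14, adjusted p = 0.01 in edgeR), KIF14 at 0.55 (SE 0.12, adjusted p = 0.0059 in edgeR) and CENPO at 0.54 (SE 0.18, adjusted p = 0.056 in edgeR). USP1 fell by 0.36 (SE 0.11, adjusted p = 0.048 in edgeR), with mRNA of 588 and 612 CPM in untreated cells, 628 and 599 in Tm, 634 and 608 in Tm + ISRIB and 611 and 576 in ISRIB.

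For SPC25, RPFs were 77.0 and 77.5 CPM in untreated cells, 81.4 and 89.6 in Tm, 71.3 and 81.5 in Tm + ISRIB and 77.4 and 67.3 in ISRIB, and its mRNA had fallen in Tm. For RAD54L, RPFs were 34.7 and 36.1 CPM in untreated cells, 48.1 and 37.7 in Tm, 33.1 and 32.3 in Tm + ISRIB and 26.3 and 34.3 in ISRIB, so that Tm replicate a carried most of its RPF difference. For RCC2, RPFs were 322 and 380.1 CPM in untreated cells and 381 and 383 in Tm, with the Tm libraries just above. In the order RAD54L, SPC25 and RCC2, the mRNA fell by 0.52, 0.47 and 0.25 on the log2 scale and the efficiency rose by 0.81, 0.61 and 0.37. These values share the mRNA libraries, and a fall in mRNA by itself raises the efficiency, so their common order is no separate result.

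KIF14 mRNA was 225 and 232 CPM in untreated cells, 191 and 208 in Tm, 198 and 192 in Tm + ISRIB and 206 and 215 in ISRIB, with a Tm change of -0.20 that did not pass, against the rise of its RPFs. CENPO mRNA was 33.4 and 31.1 CPM in untreated cells, 29.1 in both Tm libraries, 30.1 and 32.9 in Tm + ISRIB and 29.3 and 35.9 in ISRIB. SGOL2 mRNA was 113 and 128 CPM in untreated cells, 97.3 and 118 in Tm, 111 and 106 in Tm + ISRIB and 119.7 and 120.0 in ISRIB. For CENPO both Tm libraries were below the untreated ones by a small margin, and for SGOL2 they overlapped. CENPF mRNA was 1499.5 and 1600.2 CPM in untreated cells, 1352 and 1533 in Tm, 1519.9 and 1329 in Tm + ISRIB and 1509 and 1526 in ISRIB. MSH6 mRNA was 754 and 774 CPM in untreated cells, 758 and 738 in Tm, 751 and 719.6 in Tm + ISRIB and 742 and 680.5 in ISRIB. For SGOL2, CENPF and MSH6 the mRNA libraries overlapped between the treatments, and their efficiency rose by 0.47, 0.42 and 0.26 (adjusted p = 0.034, 0.028 and 0.088 in edgeR).

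ASPM rose in efficiency by 0.48 (SE 0.12, adjusted p = 0.017 in edgeR), with mRNA of 984 and 979.8 CPM in untreated cells, 899 and 1039 in Tm, 1020.5 and 965 in Tm + ISRIB and 1037 and 965 in ISRIB. With the trend over coding length removed, 5 members rose and 1 fell, and 1625 of all tested transcripts were called, against 1752 without the correction. The changes of ASPM and CENPF were then 0.07 and 0.04 in place of 0.48 and 0.42. Above 1200 codons, 21.3% of all tested transcripts rose in efficiency. SPC25, with 205 counted codons, was the only member called in efficiency under all 12 alternatives. With each replicate of the comparison left out in turn, the median efficiency change of the members was 0.05 to 0.14, against 0.06 with all.

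When ISRIB was added to Tm, RPFs on 11 members fell and those on 1 rose relative to Tm alone, where 8.2% of all tested transcripts fell and 9.54% rose. The fall covered kinetochore and centromere proteins (CENPA, CENPO, HJURP), spindle motors and ASPM (KIF2C, KIF14), mitotic regulators (CKS1B, CDCA8, RCC2), ORC1 and RAD54L, and the member that rose was USP1. Both Tm + ISRIB libraries lay below both Tm libraries for 19 members and above for 4, where 27.1% and 28.3% of all tested transcripts did so. The median change was -0.13 against 0.00 over all tested transcripts. The comparison shares its Tm libraries with that of Tm against untreated cells, so a high Tm value moves a gene up in that comparison and down in this one.

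CENPO fell by 0.66 (SE 0.16, adjusted p = 0.007 in edgeR) and CENPA by 0.74 (SE 0.23, adjusted p = 0.028 in edgeR), the latter from 13.4 and 16.9 CPM in Tm to 7.17 and 10.5 in Tm + ISRIB. HJURP, the chaperone that loads CENPA at centromeres, had 94.4 and 93.3 CPM of RPFs in untreated cells, 105 and 110.1 in Tm, 86.5 and 90.9 in Tm + ISRIB and 90.6 and 87.1 in ISRIB, and fell by 0.27 in Tm + ISRIB against Tm (SE 0.09, adjusted p = 0.051 in edgeR). KIF2C fell by 0.31 (SE 0.08, adjusted p = 0.008 in edgeR) and CKS1B by 0.34 (SE 0.11, adjusted p = 0.031 in edgeR). USP1 rose by 0.48 (SE 0.09, adjusted p = 0.0003 in edgeR). CENPO and USP1 were the only members called in this comparison under all 11 alternatives. Leaving out each library of the comparison in turn gave a median change of the members of -0.15 to -0.08, against -0.13 with all.

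In translational efficiency, KIF2C (-0.36) and CENPO (-0.78) fell and USP1 (0.47) rose in Tm + ISRIB against Tm, where 2.42% of all tested transcripts fell and 3.68% rose. With each replicate of the comparison left out in turn, the change was -0.45 to -0.28 for KIF2C and -0.83 to -0.74 for CENPO. For USP1 it was 0.32 to 0.61. Whether these calls hold cannot be decided with 1 library in a group.

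In the cells given both agents, RPFs of no member differed from untreated cells (2.65% of all tested transcripts called in either direction) or from cells given ISRIB alone (1.34%), and none differed between ISRIB and untreated cells (0.0182%). At an unadjusted p under 0.05 in edgeR, 3 members were higher and 2 lower in the first of these. In the second 1 was higher and 2 lower, and in the last 1 was higher. Of all tested transcripts 13.2%, 11.1% and 4.3% passed that level in the same order. DESeq2 called 0 members in each, and 84, 61 and 2 of all tested transcripts. The medians were 0.01, -0.01 and 0.01. The change of ASPM in Tm + ISRIB against untreated cells was 0.22 (SE 0.08, adjusted p = 0.18 in edgeR) and that of SGOL2 was 0.27 (SE 0.09, adjusted p = 0.15 in edgeR), the highest of the members. The lowest was CENPA, at -0.37 (SE 0.20), with 7.17 and 10.5 CPM in Tm + ISRIB and 10.4 and 8.78 in ISRIB, a level at which few reads were counted. In ISRIB against untreated cells, SGOL2 (0.20) and CENPA (-0.27) were again the extremes, and neither passed. Leaving out each library in turn gave a median change in Tm + ISRIB against untreated cells of -0.02 to 0.05. With all libraries no member passed in that comparison, but some did without untreated replicate a, a fit that leaves 1 untreated library.

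In translational efficiency, SGOL2 at 0.43 (SE 0.13, adjusted p = 0.067 in edgeR) and TOP2B, a type II topoisomerase, at 0.31 (SE 0.10, adjusted p = 0.08 in edgeR) rose in Tm + ISRIB against untreated cells, where 3.97% of all tested transcripts rose and 5.03% fell. TOP2B had 283 and 268 CPM of RPFs in untreated cells and 295 and 309 in Tm + ISRIB, and its mRNA was 816 and 882 CPM against 757 and 747. Both are long, with 1602 counted codons in TOP2B and 1246 in SGOL2, and with the trend over coding length removed their changes were 0.08 and 0.26 and did not pass. With each replicate of the comparison left out in turn, the changes were 0.265 to 0.59 for SGOL2 and 0.22 to 0.40 for TOP2B. Whether either call holds cannot be decided from omissions that leave 1 library in a group. No member passed in efficiency in ISRIB against untreated cells (0.191% of all tested transcripts) or in Tm + ISRIB against ISRIB (1.19%). At an unadjusted p under 0.05 each of these had 0 members higher and 2 lower, where 8.86% and 14.3% of all tested transcripts passed. DESeq2 called 0 members in each, and 44 and 179 of all tested transcripts. Leaving out each replicate in turn gave a median of the members in Tm + ISRIB against ISRIB of -0.05 to 0.02. With all libraries no member passed there, but some did without ISRIB replicate a, in which RAD54L mRNA stood with the Tm libraries. That fit leaves 1 ISRIB replicate.

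The effects of Tm without ISRIB (Tm against untreated) and with ISRIB (Tm + ISRIB against ISRIB) share no library, and their difference was tested directly. In RPFs it passed for 4 members, USP1 (higher with ISRIB) and CDCA8, KIF2C and RCC2 (lower with ISRIB), where 3.8% of all tested transcripts were higher and 3.1% lower. The Tm effect on USP1 was -0.33 (SE 0.09) without ISRIB and 0.11 (SE 0.08) with it, a difference of 0.44 (SE 0.12, adjusted p = 0.035 in edgeR). On KIF2C the Tm effect was 0.34 (SE 0.08) without ISRIB and -0.07 (SE 0.08) with it, a difference of -0.41 (SE 0.11, adjusted p = 0.032 in edgeR).

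For CDCA8 the effects were 0.27 (SE 0.10) and -0.17 (SE 0.10), a difference of -0.44 (SE 0.14, adjusted p = 0.075 in edgeR). For RCC2 they were 0.12 (SE 0.08) and -0.22 (SE 0.08), a difference of -0.35 (SE 0.11, adjusted p = 0.066 in edgeR). RCC2 had 322 and 380.1 CPM in untreated cells, 381 and 383 in Tm, 310.3 and 318 in Tm + ISRIB and 357 and 376 in ISRIB, so that the Tm + ISRIB libraries were the lowest. In CDCA8 and RCC2 the difference thus rested also on an ISRIB level above that of Tm + ISRIB. The largest difference was that of CENPO, at -0.50 (SE 0.22), which did not pass. With each library left out in turn, the difference was 0.32 to 0.55 for USP1 and -0.47 to -0.34 for KIF2C. It was -0.58 to -0.32 for CDCA8 and -0.48 to -0.23 for RCC2. Whether the 4 calls hold cannot be decided from these omissions, which leave 1 library in a group. The difference in efficiency passed for 0 members, with 1.39% of all tested transcripts called. At an unadjusted p under 0.05 in edgeR, 1 member was higher and 4 lower, where 14% of all tested transcripts passed. DESeq2 called 0 members and 157 of all tested transcripts.

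**Figure D4:**
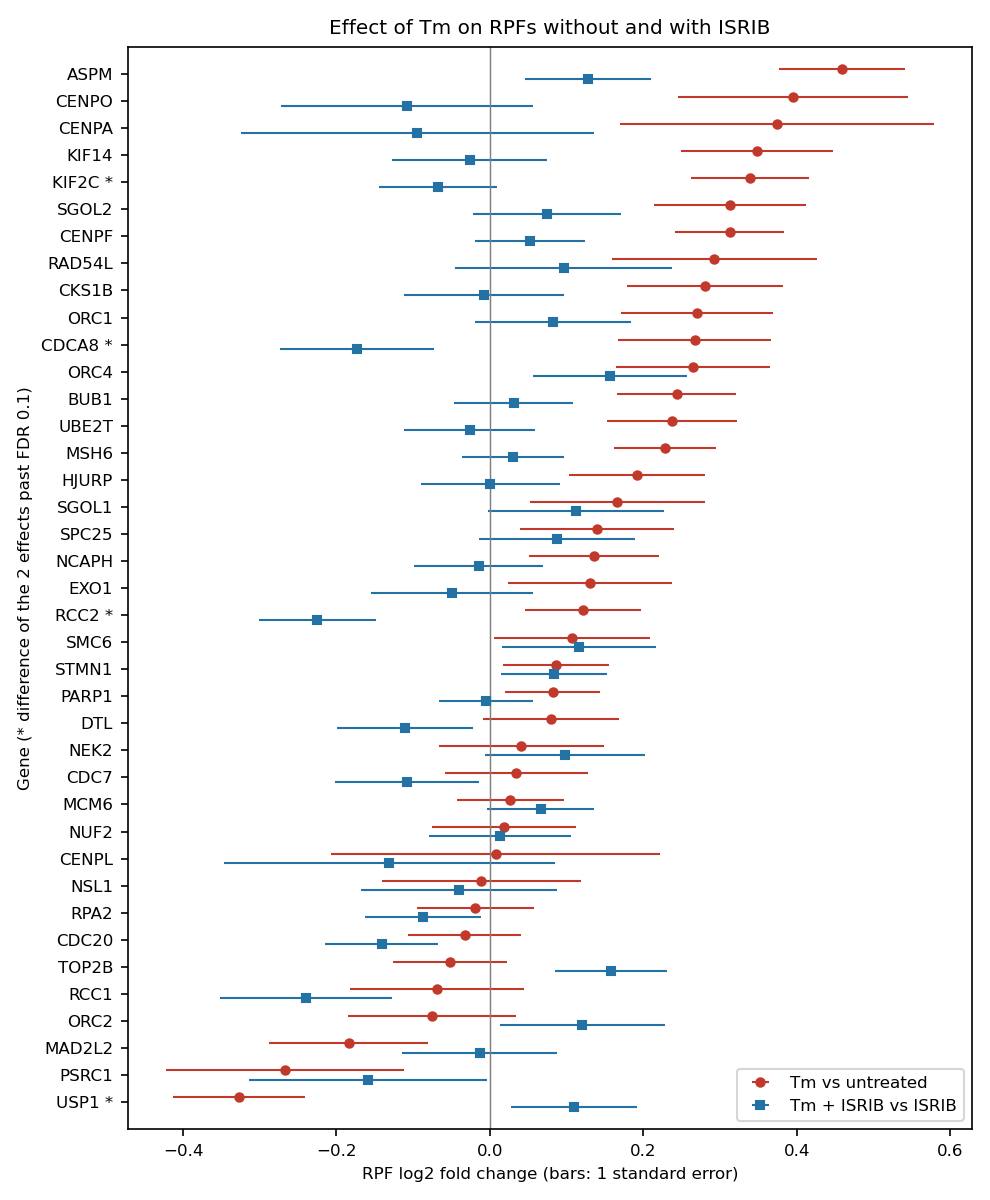
RPF log2 fold change of Tm against untreated cells (circles) and of Tm + ISRIB against ISRIB (squares) for each of the 39 members, in order of the first, with bars of 1 standard error. The circles spread from -0.33 (USP1) to 0.46 (ASPM) and the squares from -0.24 (RCC1) to 0.16 (TOP2B), and the 4 members with a star are those whose difference passed.

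In untreated cells, the translational efficiency of the members (log2 of RPF CPM over mRNA CPM, in which length cancels) spread from -2.38 for ASPM to 1.31 for STMN1, with a median of -0.13 against 0.03 over all tested transcripts. The 4 lowest after ASPM were EXO1 (-2.14), a repair exonuclease, CENPF (-1.94), KIF14 (-1.76) and USP1 (-1.71), and ASPM lay at the 2.25th percentile of all tested transcripts. STMN1 lay at the 86.9th percentile, followed by CDCA8 (0.90) and RPA2 (0.76), and had 407 and 401 CPM of RPFs for 156 and 169 CPM of mRNA in untreated cells, where ASPM had 202 and 176 for 984 and 979.8. Of the 39, 16 were below the lower quartile of all tested transcripts and 2 above the upper quartile. The untreated replicates differed by an SD of 0.11 in the median member, so neighbours in the middle of the order cannot be ranked. ASPM (-2.28 and -2.47 in replicates a and b) and EXO1 (-2.0 and -2.29) overlapped, and both STMN1 values (1.38 and 1.25) were above those of every other member. By role, the medians went from -0.90 for DNA repair and -0.82 for chromosome structure and cohesion to 0.52 for the checkpoint, anaphase and mitotic regulators. Across the 39 members, the RPF change in Tm had a Spearman correlation of -0.07 with this resting value, which shares the untreated libraries, and of 0.19 with counted codons.

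**Figure D5:**
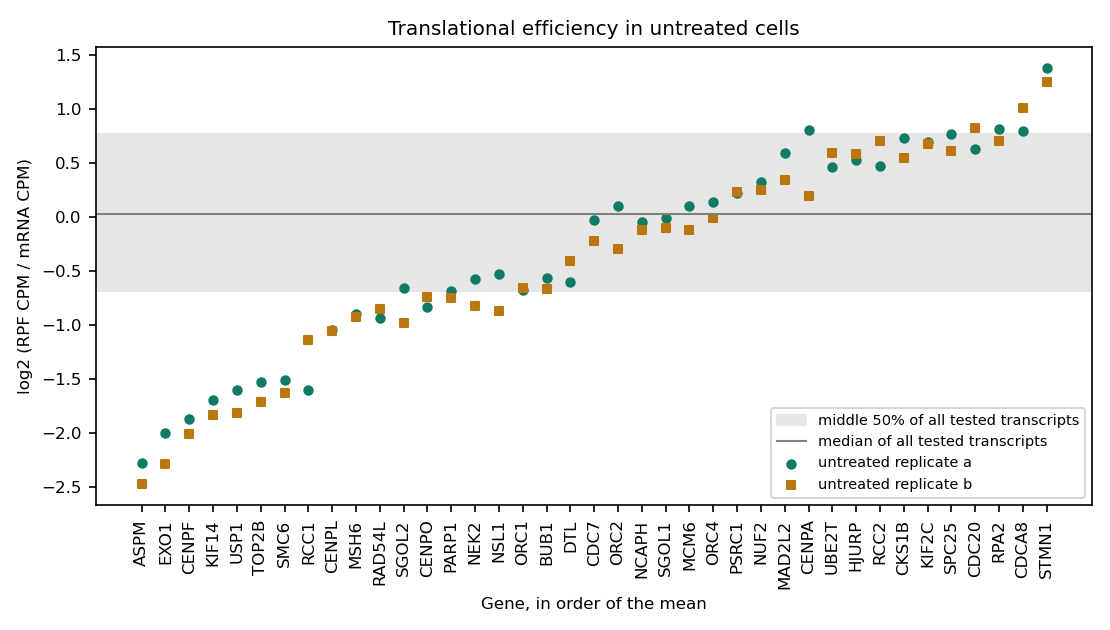
Translational efficiency of the 39 members in untreated replicates a and b, in order of their mean, over the median and middle 50% of all tested transcripts. ASPM (-2.38) is the lowest and STMN1 (1.31) the highest, and 16 members lie below the grey band.

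Of 60 other tested genes of DNA replication, repair and mitosis from the same source table, RPFs rose on 8 and fell on 1 in Tm against untreated cells, where 6.32% and 7.23% of all tested transcripts did, with a median of 0.10. SPRTN, a protease of DNA-protein crosslinks, rose by 0.46 (SE 0.11, adjusted p = 0.0096 in edgeR), EXO5, a DNA exonuclease, by 0.67 (SE 0.18, adjusted p = 0.018 in edgeR), and SMARCAL1, which remodels stalled forks, fell by 0.42 (SE 0.13, adjusted p = 0.042 in edgeR). In Tm + ISRIB against Tm, 3 of the 60 rose and 5 fell, where 9.54% and 8.2% of all tested transcripts did, a share near or below the background. SPRTN fell by 0.40 (SE 0.12, adjusted p = 0.023 in edgeR), the largest of the falls, and DEPDC1 rose by 0.33 (SE 0.10, adjusted p = 0.033 in edgeR). In mRNA 3 rose and 1 fell in Tm, where 6.6% and 4.45% of all tested transcripts did, and in translational efficiency 6 rose and 2 fell, where 7.19% and 8.78% did. The difference of the Tm effect in RPFs passed for CLSPN, an adaptor of the replication checkpoint, at -0.39 (SE 0.11, adjusted p = 0.039 in edgeR) and NASP, a histone chaperone, at -0.31 (SE 0.10, adjusted p = 0.076 in edgeR).

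The promoters of the members, 250 bases before to 50 after a start in RefSeq (GRCh38.p14), were found for 37 and searched on both strands for motifs known from cell cycle genes. The cell cycle homology region (TTTGAA or TTCGAA) lay in 18 of 37 (48.6%) and in 17.5% of 15843 protein-coding genes. The CCAAT box lay in 26 (70.3%, against 42.1%) and an E2F site (TTTCCCGC, TTTGGCGC, TTTCGCGC or TTTGCCGC) in 8 (21.6%, against 5.4%). Of the spindle genes that rose in RPFs in Tm, ASPM and KIF14 had the first motif and KIF2C did not. Of the members whose mRNA changed in Tm, CDCA8, SPC25 and UBE2T had it and ORC1, RAD54L and RCC2 did not. A gene with several listed starts counted when any of them matched. A match is a run of letters, and binding was not measured.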

How the data were processed

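The authors deposited raw counts per UCSC transcript for each library, with RPFs or mRNA reads counted over the coding sequence after alignment to hg19; the submitters' processing notes name CASAVA 1.8, Bowtie 1.0.0 and TopHat2 2.0.7 and 2.0.10. Of 19938 identifiers in both assays, 19044 had the same counted length and were joined, and 10970 passed filterByExpr (minimum count 10) in both. Counts were tested in edgeR 4.0.16 (R 4.3.3) by the quasi-likelihood test with TMM scaling, all 4 treatments in 1 fit per assay, and translational efficiency as the assay by treatment interaction over 16 libraries. P-values were adjusted by Benjamini-Hochberg, with a threshold of 0.1, and rest on 2 replicates a group. DESeq2 1.42.0 was an alternative, and the scripts were tested on simulated data. The members, the list of other pathway genes and their roles were chosen with earlier results of these data known. RPF or mRNA levels are given by library for members past the threshold in Tm against untreated cells or in the difference of the Tm effect (at least the 12 largest where more passed) and for the largest rise and fall, and other members by ranges and counts. ATF4 is given as a reference. Resting efficiency used a pseudocount of 0.5 CPM. The deposited counts leave 20 codons out of each coding sequence. Symbols were read from a shortened table, so genes on other chromosomes were not analysed here. GENCODE v29 and RefSeq sequences are of GRCh38 and not of the build of the counts. Alternatives covered scaling, filter, tool, replicate letters, samples in the fit, each library left out and coding length.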

Additional observations from a re-analysis of the deposited data

Results flagged for a closer look

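The RPF effect of Tm differed between cells without and with ISRIB in 4 members, by a test of the difference itself in edgeR's quasi-likelihood fit. Of all tested transcripts 3.8% passed this test as higher and 3.1% as lower. The effect with ISRIB less that without was 0.44 for USP1 (adjusted p = 0.035), -0.44 for CDCA8 (adjusted p = 0.075), -0.41 for KIF2C (adjusted p = 0.032) and -0.35 for RCC2 (adjusted p = 0.066). USP1 had the opposite direction to the other 3. The groups hold 2 libraries each. Leaving out each library in turn gave 0.32 to 0.55 for USP1 and -0.58 to -0.32 for CDCA8. It gave -0.47 to -0.34 for KIF2C and -0.48 to -0.23 for RCC2. With 1 library in a group, whether the calls hold cannot be decided.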

How the results depend on the processing

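Of 61 changes given for single members past the threshold, 4 stayed past it under all alternatives run (ASPM in RPFs and SPC25 in translational efficiency in Tm, CENPO and USP1 in RPFs in Tm + ISRIB against Tm), and 0 alternative values reversed; 467 kept the call and 231 lost it. The alternatives include omissions that leave 1 library in a group, where a lost call cannot tell an unstable change from a weaker test. The cause was not tested. Numbers in brackets are of all tested transcripts called. DESeq2 called 8 members in RPFs in Tm (753), 5 in Tm + ISRIB against Tm (1003) and 0 in mRNA in ISRIB (145). The main fits called 1486, 1945 and 131 transcripts there. Fits of only the treatments compared called 9 in RPFs in Tm (1210) and 2 in RPFs in Tm + ISRIB against ISRIB (521, against 147 with all treatments). In mRNA they called 14 in Tm (3165, against 1212), 14 in Tm + ISRIB (2962, against 1562) and 0 in ISRIB (0). In efficiency they called 7 in Tm + ISRIB (1317, against 987) and 5 in Tm + ISRIB against Tm (1027, against 670). Scaling by total counts called 0 in mRNA in ISRIB (116) and 4 in efficiency in Tm + ISRIB (1046). No filter, with more transcripts tested, called 2 in mRNA in Tm + ISRIB against ISRIB (1048) and 1 in efficiency in Tm + ISRIB (995). Removing the length trend called 6 in efficiency in Tm (1625) and 1 in Tm + ISRIB (751). Across transcripts, the differences between replicates a and b correlated between treatments by -0.02 to 0.11 in Ribo-Seq. In mRNA-Seq the correlations were -0.15 to 0.04, except 0.36 for Tm + ISRIB and ISRIB, where libraries of the same letter moved together. With the replicate block, 13 members were called in RPFs (1521) and 10 in efficiency (1976) in Tm. In efficiency in Tm + ISRIB that block called 4 (1225), where the block by lysate gave 1 (957). For mRNA in Tm + ISRIB, a block fitted to those treatments and the untreated libraries alone called 2473 transcripts and 10 members with letters as given, and 4096 and 21 with them crossed. Without single libraries the calls were 3 to 11 in RPFs in Tm, 0 to 5 in Tm + ISRIB, 3 to 10 in Tm + ISRIB against Tm and 0 to 5 in the difference. In mRNA they were 0 to 1 in Tm, 0 to 1 in Tm + ISRIB, 0 to 3 in ISRIB, 0 to 12 in Tm + ISRIB against ISRIB and 0 to 1 in the difference. In efficiency they were 1 to 6 in Tm, 0 to 2 in Tm + ISRIB, 0 to 4 in Tm + ISRIB against ISRIB and 0 to 1 in Tm + ISRIB against Tm. Precision is limited by 2 libraries a group and by the Tm Ribo-Seq libraries, the shallowest.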
